A study of Mus musculus with 9 samples.

Results

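Follicular B cells and marginal zone B cells, the main mature B cell populations of the mouse spleen, are told apart by a small set of surface receptors and transcription factors. The levels of 8 genes grouped here with such markers, Cr2, Fcer2a, Cr1l, Cd1d1, Cd55, Cd93, Klf2 and Klf3, were compared in splenic B cells of leukemic and wildtype mice. They were taken by name from the 22174 genes of the deposited expression table, all 8 were found there, and all 8 passed the filter on low counts. The study asked whether human MTCP1, an oncogene of the TCL1 family, drives a leukemia resembling chronic lymphocytic leukemia, and measured RNA in B cells that had been enriched from spleen with a pan B cell kit. There were 9 mice with 1 library each: 3 Eµ-MTCP1 mice carrying hMTCP1, 3 Eµ-TCL1 mice carrying hTCL1, and 3 wildtype mice with no transgene. The strain of all 9 was given as C57/BL6NTac, and the labels gave no treatment and no age for any of them. The Eµ-MTCP1 mice descended from 1 founder line, Z36, the transgene is driven in B cells by a VH promoter and the IgH Eµ enhancer, and transgenic mice were sampled with advanced disease, so that transgene and leukemia cannot be told apart in any comparison with wildtype.

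Reads assigned to genes numbered 6464090 to 8053020 per library. The labels held in the data: the deposited log2-scale level of hMTCP1 was 11.12 to 12.30 in Eµ-MTCP1 mice and at most 6.19 in the other mice, and that of hTCL1 was 14.93 to 15.60 in Eµ-TCL1 mice and at most 6.96 elsewhere. The pan B cell genes (Cd79a, Cd79b, Ms4a1, Pax5, Ebf1, Cd22 and Blnk) summed to 8046 to 9313 CPM (reads scaled to library size, with TMM factors) in Eµ-MTCP1 mice, 6072 to 8140 in Eµ-TCL1 mice and 6976 to 8179 in wildtype mice. By the headers of the count table, wildtype replicate 2 was on another sequencing lane than the other 8 libraries. Because these are bulk samples, fewer cells of a type and less RNA per cell cannot be told apart.

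Background on the 8 genes is as follows. Cr2 encodes complement receptor 2 (CD21) and, by alternative splicing in the mouse, the longer complement receptor 1 (CD35). CD21 binds fragments of complement C3 on antigen and lowers the threshold of B cell receptor signaling, and it is highest on marginal zone B cells. Fcer2a encodes CD23, the low-affinity IgE receptor, which is high on follicular B cells, is induced by IL-4 through STAT6 and is shed by the protease ADAM10. Cr1l (also called Crry) and Cd55 (decay-accelerating factor) encode membrane regulators that limit complement activation on the cell's own surface. Cd1d1 encodes the CD1d molecule that presents lipids to natural killer T cells and is high on marginal zone B cells. Cd93 encodes a lectin-like receptor, known as AA4.1, that marks transitional B cells and is also present on plasma cells, myeloid cells and endothelium. Klf2 and Klf3 encode Krüppel-like transcription factors that bind CACCC boxes, and in B cells both are known to bear on the choice between follicular and marginal zone fates.

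Reference promoter sequence is shown for the genes that differed most from wildtype, Cr2 and Fcer2a. Each sequence is the 250 bases before a RefSeq transcription start on the minus strand of GRCm38.p6, read 5′ to 3′ in the direction of the gene. Capitals mark matches, on either strand, to CACCC (the KLF box), TGGGAA (RBPJ), CCCNNGGG (EBF1) or a STAT6 motif (TTC and GAA with 4 bases between them).
Cr2, chr1:195176720-195176969: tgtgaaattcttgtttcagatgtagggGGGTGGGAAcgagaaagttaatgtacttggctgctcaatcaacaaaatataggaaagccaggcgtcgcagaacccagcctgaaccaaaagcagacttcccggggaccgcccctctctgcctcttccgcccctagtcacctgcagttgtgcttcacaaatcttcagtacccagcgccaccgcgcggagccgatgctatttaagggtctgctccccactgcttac
Fcer2a, chr8:3690862-3691111: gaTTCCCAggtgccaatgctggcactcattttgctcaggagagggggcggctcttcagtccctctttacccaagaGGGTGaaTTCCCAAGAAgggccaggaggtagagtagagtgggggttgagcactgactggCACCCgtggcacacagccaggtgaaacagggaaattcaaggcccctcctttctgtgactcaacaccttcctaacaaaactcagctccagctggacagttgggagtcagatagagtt
The Cr2 window held 1 CACCC and 1 TGGGAA match, which overlap each other 223 and 220 bases before the start. The Fcer2a window is 1 of 3 RefSeq starts of the gene. It held 2 CACCC matches, 2 TGGGAA matches and, 168 bases before the start, the STAT6 motif match, which overlaps 1 of the TGGGAA matches. Neither of the other Fcer2a windows held the STAT6 motif, nor did the windows of Cr2, Cr1l, Cd55, Klf2 and Klf3. Among all 32851 promoters of the same length, 5.85% held the STAT6 motif, 21.6% held TGGGAA, 52.0% held CACCC and 11.8% held CCCNNGGG. RefSeq windows were at hand for 6 of the 8 genes. Of these 6, the windows of Cd55 and Klf3 each held 1 CCCNNGGG match.

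Per base of coding sequence, the 8 genes had a different order of levels in leukemic than in wildtype B cells. In wildtype mice the mean level in TPM, a level scaled to transcript length, was 699 ± 326 (SD, n = 3) for Klf2, 233 ± 41.0 for Fcer2a, 151 ± 37.5 for Cd55, 139 ± 76.5 for Cr2, 132 ± 28.6 for Klf3, 49.8 ± 14.3 for Cd1d1, 44.8 ± 9.74 for Cr1l and 0.779 ± 0.458 for Cd93. In the 6 leukemias the order by mean TPM was Klf2 at 384 ± 127 (SD, n = 6), Klf3 at 123 ± 30.3, Cd55 at 51.3 ± 18.1, Cr1l at 35.9 ± 6.86, Cd1d1 at 21.6 ± 11, Fcer2a at 3.56 ± 2.36, Cr2 at 1.96 ± 1.69 and Cd93 at 0.502 ± 0.375. Fcer2a therefore stood second of 8 in wildtype mice and sixth in the leukemias, while Klf2 was first in both. In wildtype mice the TPM ranges of Fcer2a, 204 to 280, and Cr2, 73.1 to 223, overlapped, as did those of Cr2, Cd55 and Klf3, and those of Cd1d1 and Cr1l. In the leukemias the ranges of Fcer2a and Cr2 overlapped, at 1.14 to 7.93 and 0.476 to 5.30, as did those of Cd55, Cr1l and Cd1d1. That of Cd93, 0.0669 to 1.16, overlapped those of Fcer2a and Cr2 as well.

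**Figure D1:**
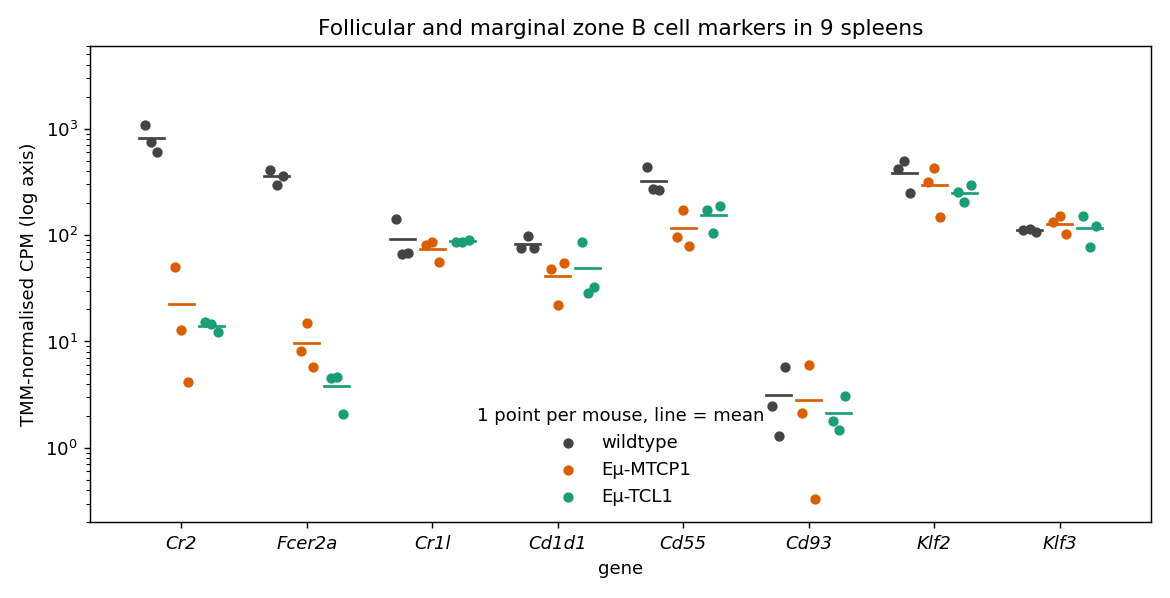
CPM after TMM scaling (log axis) of each gene in each mouse, with 1 point per mouse and a line at the mean of the 3 mice of a group. Cr2 and Fcer2a lay below 51 CPM in all 6 leukemias and above 292 CPM in all wildtype mice, Cd55 was lower in every leukemia by a smaller margin, and the other genes overlapped between at least 1 leukemic group and wildtype.

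Cr2 and Fcer2a fell in both leukemias, and Cd55 fell in Eµ-MTCP1. Differences were tested with edgeR's quasi-likelihood test on summed reads per gene, all 9 libraries in 1 fit, with Benjamini-Hochberg adjustment over 11163 genes and a threshold of 0.05. The comparisons of both leukemias with wildtype share the same 3 wildtype mice, so they are not independent. In Eµ-MTCP1 against wildtype 3 of the 8 genes passed, all lower, where 4.0% of all genes tested were called lower, 5.49% higher and 9.49% in either direction. In Eµ-TCL1 against wildtype 2 of 8 passed, both lower, where 4.13% of all genes were called lower, 5.03% higher and 9.16% in either direction. An unadjusted p was under 0.05 for 4 and 3 of the 8 genes in Eµ-MTCP1 and Eµ-TCL1, against 25.0% and 25.1% of all genes. DESeq2 called 3 of the 8 in each, against 14.7% and 15.2% of all genes. The median log2 fold change of the 8 genes was -0.69 in Eµ-MTCP1 and -0.70 in Eµ-TCL1, and that of all genes tested was -0.02 and -0.01. Groups did not overlap, with the leukemia lower, for 4 of 8 genes in Eµ-MTCP1 (15.3% of all genes) and 3 of 8 in Eµ-TCL1 (16.1% of all genes).

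Of the complement receptors, Cr2 (ENSMUSG00000026616.15, chr1:195136811-195176716, minus strand, GRCm38) was counted at 4040, 6921 and 8663 reads in wildtype replicates 1 to 3. It had 25, 91 and 307 reads in Eµ-MTCP1 replicates 1 to 3, and 88, 118 and 111 in Eµ-TCL1 replicates 1 to 3. As normalised levels these were 610, 751 and 1073 CPM in wildtype, 4.13, 12.9 and 50.4 CPM in Eµ-MTCP1 and 12.3, 14.5 and 15.4 CPM in Eµ-TCL1. No leukemia reached the lowest wildtype mouse. The Eµ-TCL1 mice lay close together, with a coefficient of variation of 11.1%, whereas Eµ-MTCP1 replicate 3 was 12.2 times Eµ-MTCP1 replicate 1. The log2 fold change was -5.18 ± 0.75 (SE, n = 3 against 3, edgeR adjusted p = 0.00214), or 36.1-fold lower, in Eµ-MTCP1. In Eµ-TCL1 it was -5.85 ± 0.77 (edgeR adjusted p = 0.00122), or 57.7-fold lower. Without Eµ-MTCP1 replicate 3, the Eµ-MTCP1 value was -6.56 on the log2 scale.

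Fcer2a, the IgE receptor gene (ENSMUSG00000005540.10, chr8:3681737-3694175, minus strand), fell in every leukemia. Wildtype replicates 1 to 3 had 361, 293 and 414 CPM, Eµ-MTCP1 replicates 5.78, 15.1 and 8.20 CPM, and Eµ-TCL1 replicates 2.10, 4.67 and 4.56 CPM. These rest on 2389 to 3338 reads in wildtype mice, 35 to 106 in Eµ-MTCP1 mice, and only 15 to 38 in those with Eµ-TCL1. The 3 groups did not overlap one another. The log2 fold change was -5.19 ± 0.41 in Eµ-MTCP1 (36.5-fold lower, edgeR adjusted p = 0.000175) and -6.55 ± 0.44 in Eµ-TCL1 (93.4-fold lower, edgeR adjusted p = 8.72e-05). Cr2 and Fcer2a kept both calls under all 17 alternatives run for each comparison.

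**Figure D2:**
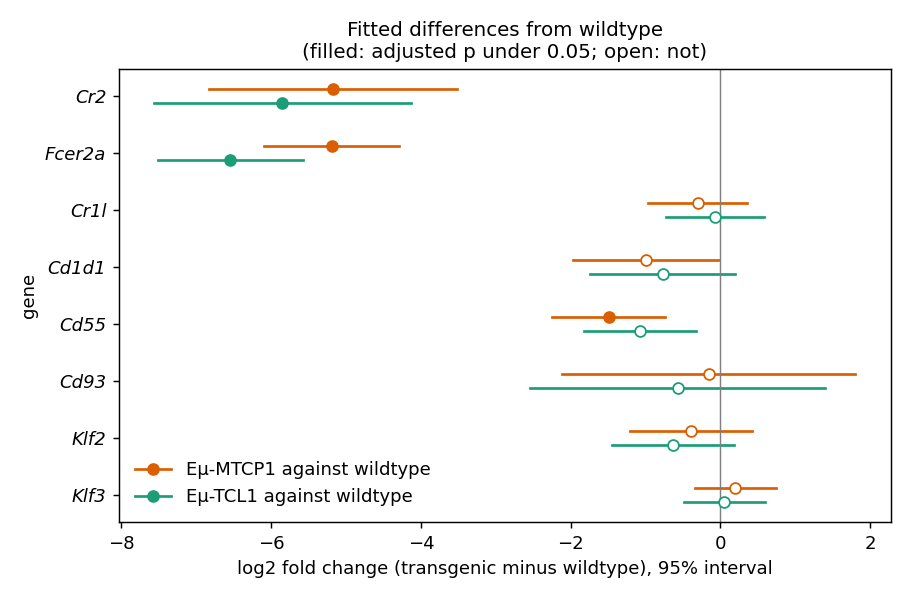
Log2 fold change of each gene against wildtype with its 95% interval (x axis), for Eµ-MTCP1 and Eµ-TCL1, with filled points where the edgeR adjusted p was under 0.05. The Cr2 and Fcer2a intervals lie wholly below -3, that of Cd55 wholly below 0 in both leukemias, and those of Cr1l, Cd93, Klf2 and Klf3 span 0.

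What remained of Cr2 and Fcer2a differed from leukemia to leukemia. Relative to the wildtype mean, Cr2 was at 0.509, 1.59 and 6.21% in Eµ-MTCP1 replicates 1 to 3 and at 1.52, 1.79 and 1.89% in Eµ-TCL1 replicates 1 to 3. Fcer2a was at 1.62, 4.23 and 2.31% in Eµ-MTCP1 and at 0.590, 1.31 and 1.28% in Eµ-TCL1. Eµ-MTCP1 replicate 3 was thus highest for Cr2 and Eµ-MTCP1 replicate 2 for Fcer2a. As a share of the reads of both genes, Cr2 took 41.7 to 86.0% in Eµ-MTCP1 mice, 75.6 to 85.4% in Eµ-TCL1 mice and 62.8 to 72.2% in wildtype mice.

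The diversity of heavy chains moved with both genes. Reads on immunoglobulin heavy chain variable (IGHV) segments other than the leading segment of a mouse, a measure of how mixed the B cells are, made up 85.2, 94.2 and 88.4% of IGHV reads in wildtype replicates 1 to 3. They made up 8.62, 4.17 and 2.01% in Eµ-MTCP1 replicates 1 to 3 and 1.87, 15.5 and 3.27% in Eµ-TCL1 replicates 1 to 3. The paper, which read segment use with MiXCR, gave the leading segment a smaller share in some mice of both leukemias. Within the leukemias the orders differed: Eµ-MTCP1 replicate 3 had the highest Cr2 level with 2.01% of IGHV reads outside the leading segment, and Eµ-TCL1 replicate 2, with 15.5%, lay between the other Eµ-TCL1 mice in its Cr2 level. The part of remaining polyclonal B cells in the Cr2 and Fcer2a levels was not tested.

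**Figure D3:**
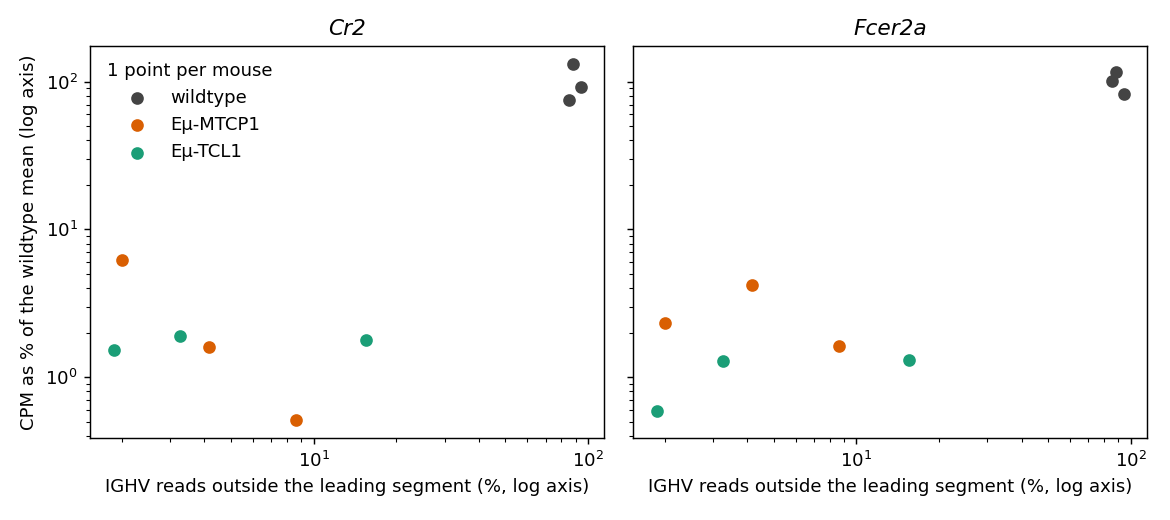
Level of Cr2 (left) and Fcer2a (right) as a percentage of the wildtype mean CPM (y axis, log) against the share of IGHV reads outside the leading segment (x axis, log), 1 point per mouse. The wildtype mice stand at the upper right above 85% of IGHV reads, and the 6 leukemias lie below 16% of IGHV reads and below 7% of the wildtype level.

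CD21 and CD23 are also made by follicular dendritic cells, so the markers of those cells were read in the same libraries. Cxcl13, Pdpn and Enpp2 had 0 reads in all 9 libraries. The 6 follicular dendritic and stromal genes together summed to 1.49 to 14.5 CPM in Eµ-MTCP1 mice, 0.246 to 5.60 in Eµ-TCL1 mice and 15.2 to 29.5 in wildtype mice, most of it from the adhesion molecule gene Vcam1, and their part in the Cr2 and Fcer2a levels was not tested.

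Of the complement regulators, Cd55 (ENSMUSG00000026399.12, chr1:130439027-130462744, minus strand) was lower in all 6 leukemias. It was at 267, 273 and 434 CPM in wildtype replicates 1 to 3, at 79.3, 171 and 95.7 CPM in Eµ-MTCP1 and at 186, 104 and 173 CPM in Eµ-TCL1. Neither leukemic group overlapped wildtype. The log2 fold change was -1.49 ± 0.34 in Eµ-MTCP1 (2.81-fold, edgeR adjusted p = 0.0217). This call was lost without Eµ-MTCP1 replicate 1 (adjusted p = 0.0615), Eµ-MTCP1 replicate 3 (0.0895) or wildtype replicate 3 (0.0883), the direction staying lower. In Eµ-TCL1 the log2 fold change was -1.07 ± 0.34 and the edgeR adjusted p was 0.0750, so it did not pass. It did pass under 7 of the 17 alternatives, among them the deposited gene counts (log2 fold change -1.29, adjusted p = 0.0419) and DESeq2 (-1.09, adjusted p = 0.0171). Its close paralog Cd55b took 0 to 8 reads per library, and reads shared by the pair may have been split between them by Salmon.

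Cr1l (ENSMUSG00000016481.15, chr1:195097382-195131586, minus strand), which lies next to Cr2, was not called. Wildtype replicates had 67.7, 66.4 and 142 CPM, Eµ-MTCP1 replicates 56.3, 86.5 and 80.7 CPM and Eµ-TCL1 replicates 90.0, 86.2 and 85.8 CPM. The groups overlapped, and wildtype replicate 3 stood above all other mice. The log2 fold change was -0.30 (95% interval -0.96 to 0.35, edgeR adjusted p = 0.558) in Eµ-MTCP1 and -0.08 (-0.73 to 0.58, edgeR adjusted p = 0.902) in Eµ-TCL1, and without wildtype replicate 3 both turned positive, at 0.14 and 0.37. These intervals exclude a fall of the size seen in its neighbour Cr2.

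Cd1d1 (ENSMUSG00000028076.12, chr3:86995834-86999441, minus strand) had 75.4, 98.3 and 75.2 CPM in wildtype replicates, 54.7, 22 and 48.2 CPM in Eµ-MTCP1 replicates and 32.2, 28.5 and 85.6 CPM in Eµ-TCL1 replicates. All Eµ-MTCP1 mice lay below wildtype, whereas Eµ-TCL1 replicate 3 lay within the wildtype range. The log2 fold change was -1.0 ± 0.44 in Eµ-MTCP1 (edgeR adjusted p = 0.191) and -0.77 ± 0.44 in Eµ-TCL1 (edgeR adjusted p = 0.311), and neither passed. Without Eµ-TCL1 replicate 3 the Eµ-TCL1 value was -1.45 with an adjusted p of 0.0421. Of the 8 T cell genes, 6 had their most reads in Eµ-TCL1 replicate 3. The list summed to 145 CPM in that mouse, 140 in Eµ-MTCP1 replicate 1 and 36.3 to 108 in the others. Other marker lists were also high in Eµ-TCL1 replicate 3. Myeloid genes summed to 1473 CPM there, the highest of the 9 mice, against 352 and 806 in the other Eµ-TCL1 mice. Natural killer cell genes summed to 38.2 CPM against 2.24 and 7.24, and plasma cell genes to 1985 CPM against 127 and 361. The part of these cells in the Cd1d1 level was not tested.

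Cd93 (ENSMUSG00000027435.8, chr2:148436640-148443563, minus strand) was near the limit of detection. It had 38, 12 and 20 reads in wildtype replicates, 2, 42 and 13 in Eµ-MTCP1 replicates and 22, 12 and 13 in Eµ-TCL1 replicates, where 3 reads correspond to 0.373 to 0.464 CPM. The groups overlapped. The 95% interval of its log2 fold change ran from -2.11 to 1.80 in Eµ-MTCP1 and from -2.54 to 1.40 in Eµ-TCL1 and included 0 in both. On the reference of full transcripts, which adds untranslated sequence, Cd93 had 141 to 159 reads in wildtype mice and 29 to 190 in the leukemias, and it was not called there either (log2 fold change -0.59 and -0.62, edgeR adjusted p = 0.606 and 0.595).

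Of the transcription factors, neither Klf2 nor Klf3 was called. Klf2 (ENSMUSG00000055148.7, chr8:72319033-72321656, plus strand) was at 249, 499 and 414 CPM in wildtype replicates, at 149, 423 and 316 CPM in Eµ-MTCP1 and at 294, 204 and 254 CPM in Eµ-TCL1. Its log2 fold change was -0.39 (95% interval -1.20 to 0.43, edgeR adjusted p = 0.544) in Eµ-MTCP1 and -0.63 (-1.45 to 0.19, edgeR adjusted p = 0.324) in Eµ-TCL1. Wildtype replicate 1 lay within the range of both leukemias, and wildtype replicate 2, the library on the other lane, was the highest of the 9.

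Klf3 (ENSMUSG00000029178.14, chr5:64803388-64832901, plus strand) was the steadiest gene in wildtype mice by CPM, at 107, 115 and 112 CPM, a coefficient of variation of 3.71%. By TPM it was not, at 132 ± 28.6 (SD, n = 3) against 233 ± 41.0 for Fcer2a. Eµ-MTCP1 replicates had 103, 150 and 132 CPM and Eµ-TCL1 replicates 121, 77.4 and 150 CPM, so the leukemias spread to both sides of wildtype. The log2 fold change was 0.20 (95% interval -0.34 to 0.74, edgeR adjusted p = 0.648) in Eµ-MTCP1 and 0.05 (-0.48 to 0.59, edgeR adjusted p = 0.917) in Eµ-TCL1. Its sign changed with the scaling, to -0.04 and -0.09 with library size alone.

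The 6 leukemias were also set against the 3 wildtype mice as 1 group, with a two-sided exact permutation test of the mean of log2(CPM + 1) over the 84 possible splits, whose smallest p is 0.0119. Cr2 (difference -5.70, exact permutation p = 0.0119) and Fcer2a (-5.70, p = 0.0119) reached that smallest value. Cd55 differed by -1.30 (exact permutation p = 0.0238) and Cd1d1 by -0.99 (exact permutation p = 0.0595). The exact permutation p was 0.226 for Klf2, 0.619 for Cd93, 0.702 for Klf3 and 0.726 for Cr1l, none adjusted for the 8 genes tested. The unadjusted p was under 0.05 in 25.9% of all genes tested in this way.

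Between the leukemias, none of the 8 genes passed. In Eµ-TCL1 against Eµ-MTCP1 0.0358% of all genes tested were called by edgeR, and 1 of the 8 had an unadjusted p under 0.05, against 6.41% of all genes. DESeq2 also called 0 of the 8 and 0.636% of all genes. The gene under 0.05 was Fcer2a, whose log2 fold change was -1.36 ± 0.39 (2.56-fold lower in Eµ-TCL1, 95% interval -2.22 to -0.49, unadjusted p = 0.0055, edgeR adjusted p = 0.546). The Eµ-TCL1 mice, at 2.10 to 4.67 CPM, lay below the Eµ-MTCP1 mice, at 5.78 to 15.1 CPM, a separation in this direction that 5.63% of all genes showed. For Cr2 the difference was -0.67 (95% interval -2.12 to 0.78), and without Eµ-MTCP1 replicate 3 it was 0.71. The other intervals were -0.43 to 0.89 for Cr1l, -0.74 to 1.20 for Cd1d1, -0.32 to 1.16 for Cd55, -2.40 to 1.56 for Cd93, -1.05 to 0.57 for Klf2 and -0.68 to 0.39 for Klf3.

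Transcripts of the same gene were compared by the share of its reads that Salmon gave to each. Cr2, Cr1l and Klf3 were tested, having a second transcript with at least 5% of their reads and at least 20 reads in every library for the gene as a whole. Single transcripts of Cr2 fell below that number in some leukemias. For Cr2, the transcript with the longest coding sequence, Cr2-212 (4227 bases), took 30.5 ± 1.22% (SD, n = 3) of reads in wildtype mice and 21.1 ± 17.4% (SD, n = 6) in the leukemias. Cr2-202, with 3099 coding bases, took 47.4 ± 6.44% and 54.0 ± 18.7%, a difference of 6.64 percentage points (two-sided exact permutation p = 0.548). On the full-transcript reference its share was 31.8 ± 2.55% in wildtype mice and 25.1 ± 21.1% in the leukemias, so the direction turned (-6.75 points, two-sided exact permutation p = 0.631). Reads of both transcripts were lower in every leukemia: 1263 to 2517 against 0 to 71 for Cr2-212, and 1821 to 3782 against 17 to 189 for Cr2-202. Klf3-201 took 71.3 ± 7.27% in wildtype mice and 68.7 ± 3.78% in the leukemias (two-sided exact permutation p = 0.524). On the full-transcript reference it took 56.5 ± 1.0% and 51.3 ± 2.92%, a difference of -5.19 points (two-sided exact permutation p = 0.0357).

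The share of Cr1l-201 differed on the coding-sequence reference and not on the full-transcript reference. On the former it was 65.6 ± 19% (SD, n = 3) in wildtype mice and 16.6 ± 13.4% (SD, n = 6) in the leukemias (two-sided exact permutation p = 0.0119). Cr1l-204 took 0 reads in the 3 wildtype mice and 164 to 274 reads, or 26.3 to 48.1% of the gene, in each leukemia. On the full-transcript reference Cr1l-201 took 45.8 ± 6.95% and 41.7 ± 7.28% (two-sided exact permutation p = 0.452), and Cr1l-204 took 45 to 125 reads in wildtype mice and 31 to 67 in the leukemias. The difference in shares thus depended on the reference given to Salmon, while the gene's total was not called on either.

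**Figure D4:**
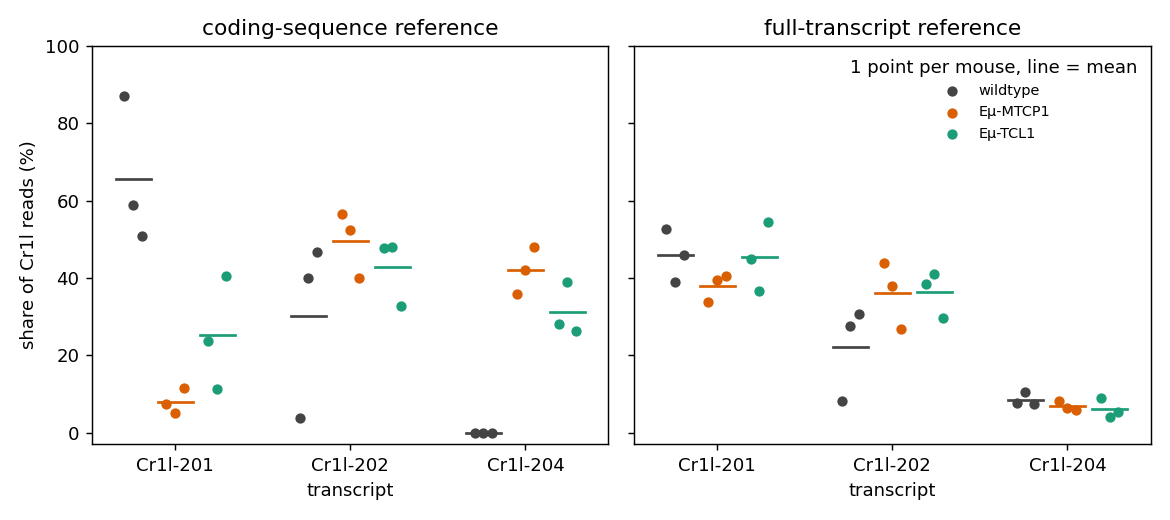
Share of Cr1l reads (y axis, percent) given to the transcripts Cr1l-201, Cr1l-202 and Cr1l-204 on the coding-sequence reference (left) and the full-transcript reference (right), 1 point per mouse with group means as lines. Cr1l-204 is at 0 in wildtype mice and above 26% in each leukemia on the left, and between 4.0 and 10.5% in all 9 mice on the right.

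Partners of these genes were read from lists of their pathways. Of the CD21 coreceptor complex (Cd81, Ifitm1, Cd22, Lyn, Vav1 and Pik3cd) 0 of 6 passed in either leukemia by edgeR, with an unadjusted p under 0.05 for 1 gene in Eµ-MTCP1 and 2 in Eµ-TCL1, and DESeq2 called 0 and 2. Of the other complement receptors and regulators, 7 of 14 passed the filter on low counts and 0 were called by edgeR in either leukemia, with 2 at an unadjusted p under 0.05 in each and 2 and 0 called by DESeq2. Cd59a, a blocker of the membrane attack complex, did not pass by edgeR, at 1.85 ± 0.298 CPM in wildtype mice and 12.1 ± 9.03 CPM in Eµ-MTCP1 (log2 fold change 2.69 ± 0.78, edgeR adjusted p = 0.0574), and was called by DESeq2 (DESeq2 adjusted p = 0.00519).

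Of the 5 genes around CD23 shedding and the IL-4 axis, 2 fell in both leukemias, the receptors Il21r and Cd40. Cd40, the receptor of CD40 ligand from T cells, was at 152 ± 14 CPM in wildtype mice, 45.6 ± 20.8 in Eµ-MTCP1 (log2 fold change -1.74 ± 0.30, edgeR adjusted p = 0.0055) and 68.2 ± 10.5 in Eµ-TCL1 (-1.16 ± 0.29, edgeR adjusted p = 0.0351). Il21r, the receptor of IL-21, was at 230 ± 34.1 CPM in wildtype mice, 53.0 ± 15.3 in Eµ-MTCP1 (-2.12 ± 0.40, edgeR adjusted p = 0.0083) and 80.9 ± 42.2 in Eµ-TCL1 (-1.51 ± 0.39, edgeR adjusted p = 0.0360). In Eµ-MTCP1 both calls held without any 1 mouse, and in Eµ-TCL1 Cd40 lost its call without any 1 of the 6 mice (adjusted p 0.0550 to 0.114) and Il21r without 4 of them, namely Eµ-TCL1 replicate 1 and each wildtype mouse. By edgeR the protease gene Adam10, the receptor gene Il4ra and Stat6 did not pass in either leukemia. DESeq2 called 4 of the 5 genes in Eµ-MTCP1, adding Il4ra and Stat6 (DESeq2 adjusted p = 0.0130 and 0.0331), and the same number as edgeR in Eµ-TCL1. Their log2 fold changes were -0.51 ± 0.23, -0.89 ± 0.25 and -0.60 ± 0.20 in Eµ-MTCP1 and -0.37 ± 0.23, -0.61 ± 0.25 and -0.14 ± 0.20 in Eµ-TCL1. Of the CD1d lipid presentation genes, 5 of 6 were tested and 0 were called by edgeR or DESeq2 in either leukemia, and 0 had an unadjusted p under 0.05.

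Of the other KLF genes, 12 of 15 were tested, and 0 were called by edgeR in Eµ-MTCP1 (2 at an unadjusted p under 0.05, 1 by DESeq2) and 1 in Eµ-TCL1, Klf13. It fell by 2.55 ± 0.63 on the log2 scale (edgeR adjusted p = 0.0299), but wildtype replicate 2 had 1026 reads where the other wildtype mice had 139 and 153 and Eµ-TCL1 mice 56 to 76. The call was lost without wildtype replicate 2 (log2 fold change -1.25, adjusted p = 0.0626) and without any 1 Eµ-TCL1 mouse. In Eµ-TCL1, 4 of these KLF genes had an unadjusted p under 0.05 and DESeq2 called 4, with Klf5 and Klf12 higher (log2 fold change 2.93 and 1.40, DESeq2 adjusted p = 0.0152 and 0.0306) and Klf9 lower (-1.44, DESeq2 adjusted p = 0.0351) beside Klf13. Of 4 genes known to be under KLF2 or KLF3, Itgb7, an integrin subunit, was higher in both leukemias, at 541 ± 122 CPM in wildtype mice, 1794 ± 580 in Eµ-MTCP1 (log2 fold change 1.73 ± 0.36, edgeR adjusted p = 0.0133) and 1930 ± 839 in Eµ-TCL1 (1.83 ± 0.36, edgeR adjusted p = 0.0099). The Eµ-MTCP1 call was lost without wildtype replicate 2 or 3, and the Eµ-TCL1 call without wildtype replicate 3. S1pr1, Lgals3 and Klf8 did not pass by edgeR or DESeq2.

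Most of the other follicular genes fell, though by less than Fcer2a, and the other marginal zone genes went both ways. Of 6 other follicular genes 4 fell in both leukemias (Ighd, Ccr7, Icosl and Bach2), and the list's median log2 fold change was -2.00 in Eµ-MTCP1 and -2.51 in Eµ-TCL1. Icosl, the ligand of ICOS, was at 104 ± 1.71 CPM in wildtype mice and 6.49 ± 2.29 in Eµ-MTCP1 and 6.49 ± 3.94 in Eµ-TCL1, with log2 fold changes of -3.99 ± 0.42 and -4.00 ± 0.42 (edgeR adjusted p = 0.000417 and 0.000357). Ccr7, the receptor that guides cells to T zones, had log2 fold changes of -3.47 ± 0.45 and -2.83 ± 0.44 (edgeR adjusted p = 0.00119 and 0.00292), the first being -4.28 without Eµ-MTCP1 replicate 2. Ighd, the IgD heavy chain that mature follicular cells carry, had -2.86 ± 0.43 and -3.46 ± 0.45 (edgeR adjusted p = 0.00269 and 0.00108). Bach2, a transcriptional repressor that holds back plasma cell fate, had -1.14 ± 0.21 and -2.19 ± 0.21 (edgeR adjusted p = 0.00701 and 0.000257). Between the leukemias (Eµ-TCL1 against Eµ-MTCP1) Bach2 was called by DESeq2 (-1.06, DESeq2 adjusted p = 0.00497) and not by edgeR (-1.05 ± 0.21, edgeR adjusted p = 0.245). The calls of these 4 genes against wildtype held without any 1 mouse in either leukemia. Cxcr5, the receptor for the follicle chemokine CXCL13, and Foxo1 did not pass by edgeR. DESeq2 called Foxo1 in Eµ-TCL1 (log2 fold change -1.10, DESeq2 adjusted p = 0.0138) and not in Eµ-MTCP1 (-0.91, DESeq2 adjusted p = 0.0556).

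Of 10 other marginal zone genes, 3 fell in both leukemias (Dtx1, Hes1 and Asb2), Cd9 rose in both and Mzb1 rose in Eµ-MTCP1, and the list's median log2 fold change was -0.15 and -0.24. Dtx1 and Hes1 are known targets of NOTCH2, whose own gene Notch2 did not pass by edgeR or DESeq2, at 389 ± 63.5 CPM in wildtype mice, 346 ± 2.96 in Eµ-MTCP1 and 266 ± 70.6 in Eµ-TCL1. Asb2, a ubiquitin ligase subunit, was at 38.9 ± 11.8 CPM in wildtype mice, 2.38 ± 0.797 in Eµ-MTCP1 (log2 fold change -4.02 ± 0.87, edgeR adjusted p = 0.0172) and 3.16 ± 4.04 in Eµ-TCL1 (-3.62 ± 0.84, edgeR adjusted p = 0.0232). Hes1, a transcriptional repressor, had 42, 338 and 116 reads in wildtype replicates 1 to 3 and 6 to 36 in the leukemias. Its log2 fold change was -2.69 ± 0.75 in Eµ-MTCP1 (edgeR adjusted p = 0.0499) and -3.67 ± 0.79 in Eµ-TCL1 (edgeR adjusted p = 0.0165). Cd9, a tetraspanin, was at 53.5 ± 3.54 CPM in wildtype mice and rose by 2.16 ± 0.41 in Eµ-MTCP1 and 2.21 ± 0.41 in Eµ-TCL1 on the log2 scale (edgeR adjusted p = 0.0091 and 0.0082). Mzb1, a chaperone of antibody assembly, rose by 1.66 ± 0.44 in Eµ-MTCP1 (edgeR adjusted p = 0.0420). DESeq2 called 5 genes of the list in Eµ-MTCP1 and 6 in Eµ-TCL1, the latter including Mzb1 and S1pr3 (DESeq2 adjusted p = 0.0205 and 0.00931). Most of the edgeR calls were lost without 1 or more of the mice. Leaving out a mouse also lowered the calls over all genes. They went from 1059 to between 525 and 943 in Eµ-MTCP1, and from 1023 to between 515 and 827 in Eµ-TCL1. A lost call alone therefore does not show that a gene rests on 1 mouse. When each of the 6 mice was left out in turn, the Mzb1 call was lost without 5 of them. In Eµ-MTCP1 the calls of Dtx1, Hes1 and Asb2 were lost without 4, 4 and 2 of the 6, and in Eµ-TCL1 without 3, 3 and 4. Cd9 lost its Eµ-MTCP1 call without wildtype replicate 3 (edgeR adjusted p = 0.0502) and kept its Eµ-TCL1 call without any 1 mouse. Without wildtype replicate 2, only the Cd9 calls remained of the 9 calls of this list. Without wildtype replicate 2, Hes1 was at -1.84 in Eµ-MTCP1 and -2.82 in Eµ-TCL1, and it was at -3.65 in Eµ-MTCP1 without Eµ-MTCP1 replicate 3. Asb2 was at -5.42 in Eµ-TCL1 without Eµ-TCL1 replicate 3.

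**Figure D5:**
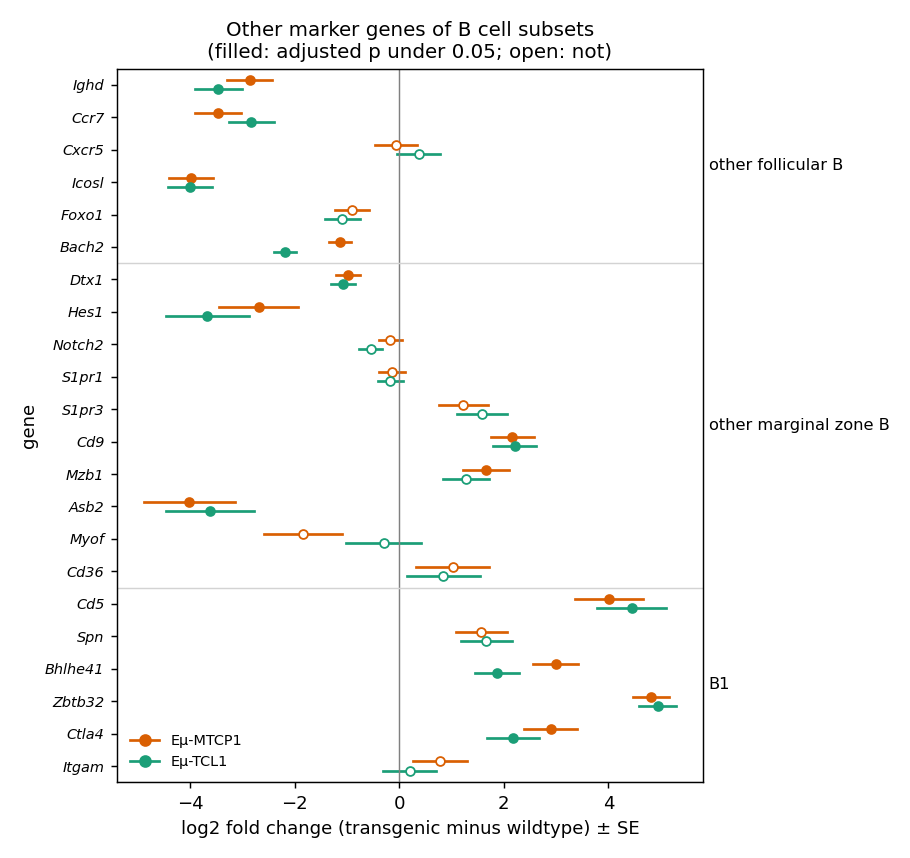
Log2 fold change against wildtype (x axis) ± SE of the other follicular, other marginal zone and B1 genes, for Eµ-MTCP1 and Eµ-TCL1, with filled points where the edgeR adjusted p was under 0.05. Follicular genes other than Cxcr5 lie at or below -0.9, marginal zone genes lie on both sides of 0, and B1 genes lie above 0.

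Genes of other B cell stages moved in the same libraries. Of 6 B1 genes, 4 rose in both leukemias by edgeR and 0 fell, and DESeq2 called 5 in each. Cd5, a receptor of B1 and leukemic B cells, rose by 4.02 ± 0.65 in Eµ-MTCP1 and 4.44 ± 0.66 in Eµ-TCL1 on the log2 scale (edgeR adjusted p = 0.00378 and 0.00238), and by 5.05 and 5.48 without wildtype replicate 1, and by 3.81 in Eµ-TCL1 without Eµ-TCL1 replicate 2. Zbtb32, a repressor, rose by 4.81 ± 0.35 and 4.94 ± 0.35 (edgeR adjusted p = 0.000117 and 0.000100). Bhlhe41, a transcription factor of B1a cells, rose by 2.99 ± 0.44 and 1.87 ± 0.42 (edgeR adjusted p = 0.0022 and 0.0209), and the inhibitory receptor gene Ctla4 by 2.90 ± 0.51 and 2.18 ± 0.50 (edgeR adjusted p = 0.00583 and 0.0212). The Eµ-TCL1 calls of Bhlhe41 and Ctla4 were lost without 3 and 4 of the 6 mice, respectively, and Ctla4 was at 1.49 without Eµ-TCL1 replicate 1. Germinal centre genes fell for Bcl6 in both leukemias (log2 fold change -2.17 ± 0.42 and -2.69 ± 0.43, edgeR adjusted p = 0.0094 and 0.0034) and for Gcsam, with 12 to 25 reads in wildtype mice and 0 to 2 in the leukemias. The Gcsam calls were lost without any 1 of the 6 mice in Eµ-MTCP1 and without 5 of the 6 in Eµ-TCL1, and Bcl6 was at -3.35 in Eµ-TCL1 without Eµ-TCL1 replicate 3. The proliferation gene Mki67 of the same list rose in Eµ-MTCP1 by 1.73 ± 0.46 (edgeR adjusted p = 0.0409), a call lost without 5 of the 6 mice, with a value of 0.88 without Eµ-MTCP1 replicate 1. Of the 6 germinal centre genes DESeq2 called 4 in Eµ-MTCP1 and 3 in Eµ-TCL1, against 3 and 2 by edgeR.

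Of the 3 transitional and precursor genes tested, Vpreb3 fell in Eµ-MTCP1, with a log2 fold change of -2.93 ± 0.74 (edgeR adjusted p = 0.0335, lost without 5 of the 6 mice, and -3.81 without Eµ-MTCP1 replicate 2), and 0 passed in Eµ-TCL1 (2 at an unadjusted p under 0.05, 1 by DESeq2). In Eµ-MTCP1, 2 of the 3 had an unadjusted p under 0.05 and DESeq2 called 2, Vpreb3 and, in the other direction, Cd24a (log2 fold change 1.02, DESeq2 adjusted p = 0.0182). By edgeR, Cd24a had 1.03 ± 0.30 in Eµ-MTCP1 and 0.81 ± 0.30 in Eµ-TCL1 (edgeR adjusted p = 0.0581 and 0.123), Vpreb1 had 0.42 ± 1.16 and 0.97 ± 1.13 (edgeR adjusted p = 0.847 and 0.645), and the median of the 3 was 0.42 and 0.81. Of 5 plasma cell genes Prdm1, the regulator of plasma cell fate, rose in both (2.11 ± 0.49 and 1.83 ± 0.48, edgeR adjusted p = 0.0227 and 0.0402), each call being lost without 4 of the 6 mice. Without Eµ-MTCP1 replicate 2 the Eµ-MTCP1 value was 1.46, and the plasma cell genes summed to 2940 CPM in that mouse, the highest of the 9, against 1049 and 346 in the other Eµ-MTCP1 mice. Of 7 pan B cell genes 0 passed in Eµ-MTCP1 (1 at an unadjusted p under 0.05, 1 by DESeq2), and Ebf1, a B lineage factor, fell in Eµ-TCL1 by 0.87 ± 0.18 on the log2 scale (edgeR adjusted p = 0.0140), a call lost without 3 of the 6 mice. In Eµ-TCL1, 4 of the 7 had an unadjusted p under 0.05 and DESeq2 called 3, Ebf1, Cd22 and Blnk, with log2 fold changes of -0.91 for Cd22 and -0.72 for Blnk (DESeq2 adjusted p = 0.00351 and 0.00787).

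Markers of other cell types gave few calls. Of 8 myeloid genes Cd68, a lysosomal protein, rose in both leukemias (2.06 ± 0.32 and 1.91 ± 0.32 on the log2 scale, edgeR adjusted p = 0.00316 and 0.00465), and the list summed to 760 to 964 CPM in Eµ-MTCP1 mice, 352 to 1473 in Eµ-TCL1 mice and 777 to 1263 in wildtype mice. T cell genes summed to 36.3 to 140, 52.2 to 145 and 73.4 to 108 CPM in the same order, natural killer cell genes to 1.16 to 11.3, 2.24 to 38.2 and 18.1 to 42.0 CPM, and platelet genes to 0.165 to 1.64, 0.138 to 2.21 and 1.30 to 2.11 CPM. Erythroid genes summed to 20.3 to 214, 13.6 to 48.0 and 19.6 to 101 CPM, and endothelial genes to 112 to 159, 116 to 149 and 141 to 179 CPM, with Kdr and Tek at 0 reads in all 9 libraries. By edgeR 0 genes of the T cell, natural killer cell, erythroid, platelet, endothelial, and follicular dendritic and stromal lists were called in either leukemia, and DESeq2 called 0 of them as well. An unadjusted p was under 0.05 for 1 T cell and 1 natural killer cell gene in Eµ-MTCP1 and for 1 T cell gene and Vcam1 in Eµ-TCL1. The part of these cells in the levels of the 8 genes was not tested.

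The genes most alike to each of the 8 over the 9 libraries are given as a description only. For each of the 8 genes the 2 genes with the highest Pearson correlation of log2 CPM were taken from 8973 genes with a mean of at least 5 CPM. These values describe 9 libraries in 3 groups, which share the difference between leukemia and wildtype. Each is among the highest of 8973 values, so a high r was to be found by selection alone. Those of Cd93 rest on 2 to 42 reads a library. Nearest to Cr2 were Ddb2 (r = 0.967), a DNA damage sensor, and Cdk5rap2 (r = 0.965), a centrosome protein. Nearest to Fcer2a were Igha (r = 0.989), the IgA heavy chain, at a mean of 1473 CPM in wildtype mice, 68.6 in Eµ-MTCP1 and 28.5 in Eµ-TCL1, and Zfp608 (r = 0.987), at 40.9, 2.59 and 2.20 CPM. The nearest to Cd55 were Chmp1b (r = 0.979) and Sgk1 (r = 0.957), to Cr1l Mettl5 (r = 0.952) and Gtf3c3 (r = 0.939), and to Cd1d1 Slfn2 (r = 0.940) and Sidt1 (r = 0.921). For Cd93 they were Hist3h2a (r = 0.924) and Ikzf5 (r = 0.922), for Klf2 Tprgl (r = 0.938) and Ulk2 (r = 0.930), and for Klf3 Eaf2 (r = 0.953) and Rnf170 (r = 0.949).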

How the data were processed

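RNA of splenic B cells of 9 mice was sequenced on an Illumina instrument. The study names both a SMARTer v4 with Nextera XT kit and a stranded TruSeq kit, so strand was not used. The authors quantified transcripts with Salmon (1.0.0 in the submitters' processing notes) and deposited estimated counts and TPM per library, on a full mouse transcript reference and on a reference with the human transgenes added, in which 92.5% of 57040 mouse transcripts had exactly the coding length. They also deposited whole gene counts, with HISAT2 2.0.6 and featureCounts named in the processing notes, and DESeq2 values, which on inspection lie on a log2 scale. The authors' deposited log2 values served only for the transgenes. The build is GRCm38.p4 per the processing notes.

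Estimated counts on the transgene reference were summed per gene through GENCODE M21 (99.7 to 99.8% of reads joined, 22139 genes), rounded, filtered with filterByExpr (11163 genes) and scaled by TMM (normalised CPM). The test was edgeR 4.0.16's quasi-likelihood F test in R 4.3.3, with all 9 libraries in 1 fit, without covariates, and Benjamini-Hochberg adjustment. The SE was taken from the fold change and its F statistic. Intervals are 95%, and the floor was 3 reads, covering counting error only. Exact permutation tests counted every split, with numpy 2.4.6. Those of levels used a pseudocount of 1 CPM, and those of transcript shares used none. Replicates were numbered in accession order, as names only. DESeq2 1.42.0, other scalings, filters and tables, and leaving out each library were alternatives.

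The 8 genes and the gene lists were chosen with earlier results of these data known. Named with values were the 8 genes, their 2 most alike genes, and at most 4 called genes per list, those with the largest fold change. Cd59a, Notch2, Adam10, Il4ra, Stat6, Foxo1, Cxcr5, S1pr3, Klf5, Klf9, Klf12, Cd22, Blnk, Cd24a and Vpreb1 were named outside that rule, after their values were seen. The authors' filtered count table and log2 values on the full reference were not used. Cd1d1 and Cd93 promoters and protein sequences were not used here. Some listed genes are not reported here and were left out of the list counts, medians and sums.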

Additional observations from a re-analysis of the deposited data

How the results depend on the processing

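The calls of Cr2 and Fcer2a held under all 17 alternatives in both comparisons with wildtype, and 2 or 3 of the 8 genes were called under each of them. No paired analysis was possible because the labels give no replicate numbers. Small log2 fold changes that were not called changed sign, and the cause was not tested. In Eµ-MTCP1 against wildtype, Klf3 was at -0.035 with library size alone and -0.031 scaled to B cell genes. Without 1 mouse, Cr1l ran from -0.53 to 0.14 (positive without wildtype replicate 3) and Cd93 from -1.37 to 0.58 (positive, at 0.01, 0.35 and 0.58, without Eµ-MTCP1 replicate 3, Eµ-MTCP1 replicate 1 and wildtype replicate 1). For Eµ-TCL1, Klf3 was at -0.092 with library size alone, -0.0038 on deposited gene counts and -0.0089 with DESeq2 on them, and Cr1l at 0.024 scaled to the B cell genes and 0.054 with DESeq2 and length offsets. Without 1 mouse, Klf3 ran from -0.17 to 0.25, Cr1l from -0.30 to 0.37 and Cd93 from -0.98 to 0.16. Between the leukemias (Eµ-TCL1 against Eµ-MTCP1), Klf2 was at 0.055 scaled to the B cell genes, 0.0147 on deposited gene counts, 0.0116 with DESeq2 on them and 0.0040 on the full-transcript reference, and Klf3 at 0.14 scaled to the B cell genes. Without 1 mouse, Cr2 ran from -1.17 to 0.71, Cd1d1 from -0.45 to 0.50 (with -0.08 without Eµ-MTCP1 replicate 2), Cd93 from -0.95 to 0.77, Klf2 from -0.57 to 0.11 and Klf3 from -0.37 to 0.076. Transcript shares on the full-transcript reference differed by -6.75 points for Cr2-202, -4.14 for Cr1l-201 and -5.19 for Klf3-201 (two-sided exact permutation p = 0.0357). Without 1 mouse the Klf3-201 difference ran from -5.06 to 1.53.

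Called genes of the lists numbered 22, 21 and 0 in Eµ-MTCP1, in Eµ-TCL1 and between the leukemias. Without 1 mouse they numbered 13 to 19 and 11 to 18. In Eµ-TCL1 DESeq2 called 33, with length offsets 31 and on deposited gene counts 36. Between the leukemias DESeq2 called 1 (Bach2 without length offsets), and 1 with them. Over all genes the calls numbered 1059, 1023 and 4, with DESeq2 1646, 1692 and 71, with length offsets 1629, 1693 and 102, and with DESeq2 on deposited gene counts, an alternative chosen after seeing the data, 2268, 2257 and 95. Between the leukemias, 10 genes were called without the low-count filter and 7 on the full-transcript reference. Without 1 mouse the calls numbered 525 to 943, 515 to 827 and 4 to 7. The median of all genes moved to -0.26 and -0.15 with library size alone and to -0.25, 0.08 and 0.31 scaled to the B cell genes. Higher and lower calls were 613 and 446 in Eµ-MTCP1 and 562 and 461 in Eµ-TCL1, against 391 and 731, and 443 and 591, with library size alone, 349 and 497, and 575 and 338, scaled to the B cell genes, and 590 and 282, and 548 and 285, without immunoglobulin genes.

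Cd93, with 2 to 42 reads a library, was not called under any alternative. Between the leukemias, Fcer2a at 15 to 106 reads had a log2 fold change of -1.36 (95% interval -2.22 to -0.49, unadjusted p = 0.00550) and was not called after adjustment over 11163 genes (edgeR adjusted p = 0.546, and 0.0733 to 0.888 over the alternatives). The 3 mice of each leukemia are separate clones, and transgene, disease burden and clone cannot be told apart.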
